A study of Homo sapiens with 15 samples.

Results

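PRMT5 knockout was set directly against WDR77 knockout in HSC-5 cells, which derive from a squamous cell carcinoma of human skin. The comparison took 12 of the 15 RNA sequencing libraries of the series, chosen by the single guide RNA (sgRNA) in the label. PRMT5KO held the 6 libraries with the genotype PRMT5 knockout, 3 biological replicates each of sgPRMT5-1 and sgPRMT5-2. WDR77KO held the 6 libraries with the genotype WDR77 knockout, 3 each of sgWDR77-1 and sgWDR77-2. The other 3 libraries, sgNeg, carry an empty vector and are labelled wild type. They were kept out of every test between the knockouts and are given beside it as the reference level. All 5 conditions carry the treatment label Neomycin, and no dose or duration is given. The paper describes sgRNAs against exons of the PRMT5 catalytic domain and of the first WD repeat of WDR77, and a check of both knockouts by qRT-PCR on the RNA-seq samples. The figure it cites for that check names sgPRMT5-1 and sgWDR77-2 only. A western blot of HSC-5 cells in the paper names both sgRNAs of each gene. The paper calls the knockouts complete. No clone is named, and the counts do not show whether a library mixed cells with and without a disrupted gene.

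PRMT5 transfers methyl groups to arginines of histones, of spliceosomal Sm proteins and of other proteins, and leaves symmetric dimethylarginine. WDR77, also called MEP50, is its constant partner and helps to present substrates, and CLNS1A, RIOK1 and COPRS are adaptors that bring substrates to the complex. In squamous carcinoma the paper reports that loss of either protein lowers the other and lowers the p63 isoform that drives these cells. A direct comparison asks where the transcripts of cells that lost the enzyme differ from those of cells that lost the partner.

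Each library held 5146711 to 6730428 reads on genes, with 5958936 to 6730428 in PRMT5KO and 5146711 to 5613325 in WDR77KO, so every PRMT5KO library was deeper than every WDR77KO library. Levels are in CPM after TMM scaling. For groups of 6 the lowest, median and highest library are given in that order, and the 3 sgNeg values are given in order of replicate. A gene was called when limma voom with Benjamini-Hochberg adjustment gave it an adjusted p under 0.05, and log2 fold changes are PRMT5KO minus WDR77KO.

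Several libraries stood apart before any gene was considered. On the first principal component of the 12 libraries (42.2% of the variance), the sgPRMT5-2 libraries scored -33.1, -33.0 and -32.4, while sgPRMT5-1 scored 2.39, 0.573 and -18.0. sgWDR77-2 replicate 1 scored -6.94, below 2 of the sgPRMT5-1 libraries, and the other sgWDR77-2 libraries scored 14.6 and 17.7. The sgWDR77-1 libraries had the highest scores, 30.9, 26.2 and 31.2. On the second component (13.1%), sgWDR77-1 replicate 1 scored -38.9, far below its replicates at 9.85 and 17.3. Thus the order along the first component ran by sgRNA, with the sgRNAs of each gene apart and with 1 WDR77KO library among those of sgPRMT5-1.

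**Figure D1:**
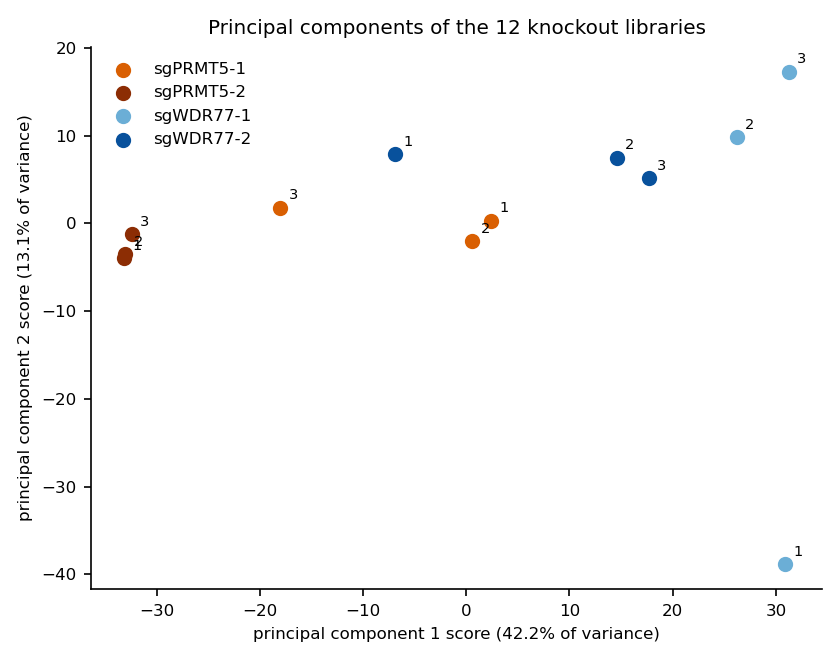
Scores of the 12 knockout libraries on the first (horizontal axis) and second (vertical axis) principal components of all genes tested, 1 point per library, coloured by sgRNA. The 3 sgPRMT5-2 libraries lie together near -33 on the first component, and sgWDR77-1 replicate 1 lies at -38.9 on the second.

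Reads outside genes took 6.04% and 5.70% of the listed reads in sgWDR77-1 replicates 2 and 3, and 2.75% to 4.26% in the other 10 knockout libraries. The highest share of the series, 7.16%, was that of sgNeg replicate 2, 1 of the 3 libraries of the reference level. Mitochondrial transcripts took 0.729% to 1.20% of gene reads in sgPRMT5-1, 1.12% to 1.72% in sgPRMT5-2, 1.38% to 1.65% in sgWDR77-2 and 1.73% to 2.26% in sgWDR77-1. Their part in the differences below was tested only as far as leaving out libraries or adding the share outside genes to the fit allows.

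Transcripts of squamous epithelium were read in all 12 libraries. Of 6 squamous markers, 5 could be tested (TP63, KRT17, DSG3, ITGB4, KRT5) and 0 were called between the knockouts by limma voom, with 2 at an unadjusted p under 0.05. Against sgNeg, 2 of the 5 were called lower and 0 higher in each knockout. Over all genes, 8.3% were lower than sgNeg in PRMT5KO and 2.55% in WDR77KO. TP63, the master factor of squamous cells, stood at 311, 340.2 and 434 CPM in PRMT5KO and 334, 386 and 528 in WDR77KO. The groups overlapped, and the log2 fold change was -0.15 (SE 0.106, adjusted p = 0.348 by limma voom with Benjamini-Hochberg adjustment). KRT5 stood at 52.2, 144 and 335 CPM in PRMT5KO, 33.8, 62.7 and 101 in WDR77KO and 512, 638 and 817 in sgNeg. Its sgPRMT5-1 libraries lay above, and its sgPRMT5-2 libraries within, the WDR77KO range, and the pooled difference was not called. KRT14 had at most 4 reads in any library, and its near-identical copies make that count uncertain.

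Most markers of other cell types had too few reads to test. TYR and DCT had 0 reads in every library, KDR, CD3E and COL1A2 had 0, and PTPRC had at most 1. COL1A1, the 1 fibroblast marker tested, stood at 6.53 to 12.7 CPM in PRMT5KO and 8.665 to 15.1 in WDR77KO and was not called. CSF1R, the 1 immune marker tested, stood at 0.679 to 1.865 CPM in PRMT5KO and 0 to 1.825 in WDR77KO. It was not called, though it was higher in PRMT5KO at an unadjusted p under 0.05 by limma voom. The 3 melanocyte markers tested summed to 11 to 15.6 CPM in PRMT5KO and 16.2 to 23.9 in WDR77KO. Most of that sum was MITF, at 8.15, 8.78 and 11.7 CPM in PRMT5KO, 12.7, 16.5 and 19.6 in WDR77KO and 10.3, 6.57 and 11.2 in sgNeg. All WDR77KO libraries lay above all PRMT5KO libraries (log2 fold change -0.79, adjusted p = 0.00261 by limma voom with Benjamini-Hochberg adjustment). VWF, at no more than 2.22 CPM in WDR77KO and 1.99 in PRMT5KO, was also called lower in PRMT5KO at few reads, with overlapping groups, and was lost with the sgRNA as a block and without some single libraries. CDH5, the other endothelial marker tested, was not called but was lower in PRMT5KO at an unadjusted p under 0.05 by limma voom. The pair, mostly CDH5, summed to 12.7 to 21.4 CPM in PRMT5KO and 19.3 to 35.6 in WDR77KO. In sgNeg the sum was 22.9, 16.6 and 24.7 CPM. In bulk RNA, fewer cells of a kind and less RNA per cell cannot be told apart.

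The targeted genes were read first, as a check of the labels. PRMT5 stood at 33, 40.4 and 44.5 CPM in PRMT5KO, 54.4, 64.3 and 79.9 in WDR77KO and 59.1, 49.6 and 67.8 in sgNeg. Every PRMT5KO library lay below every other library, and no WDR77KO library shared that loss. The log2 fold change was -0.68 (SE 0.107, adjusted p = 0.00101 by limma voom with Benjamini-Hochberg adjustment). WDR77 stood at 119, 128 and 156 CPM in PRMT5KO, 21.96, 28.7 and 53.3 in WDR77KO and 125, 114 and 119 in sgNeg. The WDR77KO libraries were the lowest without overlap, and the fall was deeper with sgWDR77-2 (mean 24.5 CPM) than with sgWDR77-1 (mean 45.4 CPM). Its log2 fold change was 1.99 (SE 0.172, adjusted p = 2.33e-06 by limma voom with Benjamini-Hochberg adjustment). Transcripts of both genes remained in the knockouts, and RNA levels do not show how much working protein was left.

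The remaining members of the complex were not called in the pooled comparison. CLNS1A differed by 0.02, RIOK1 by 0.22 and COPRS by 0.37 on the log2 scale (adjusted p = 0.877, 0.279 and 0.123 by limma voom with Benjamini-Hochberg adjustment). With sgPRMT5-2 alone, against sgWDR77-1 alone or with the sgRNAs as separate groups, 1 of them was called higher, and with sample quality weights 2. Of 7 other arginine methyltransferases, PRMT1 was called higher (0.32, adjusted p = 0.0406 by limma voom with Benjamini-Hochberg adjustment), beside 7.99% of all genes. By limma voom 0 were called lower, with 0 lower at an unadjusted p under 0.05. PRMT1, which makes asymmetric dimethylarginine, overlapped between the groups and was lost in 9 of the 12 fits without 1 library, with the sgRNA or the replicate as a block, and with RLE factors or totals alone. Of 9 ubiquitin ligases tested, TRIM8 was called higher (0.42), beside 7.99% of all genes. ITCH and FBXW7, which mark p63 for degradation, were not called, nor was FBXO30, which the paper describes as not linked to p63 before.

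Across the genome, 1962 of 14015 genes tested (14%) were called between the knockouts. Of these, 1120 (7.99%) were higher in PRMT5KO and 842 (6.01%) were lower. The median log2 fold change over all genes tested was 0.02. All 6 PRMT5KO libraries lay above all 6 WDR77KO libraries for 396 genes (2.83%) and below them for 252 (1.8%), and 364 and 225 of these were called. A difference of 1 log2 unit or more was reached by 140 of the genes called higher and 244 of those called lower, so the lower group held fewer genes but more large differences. Without 1 library at a time, the numbers ran from 446 higher and 430 lower (without sgPRMT5-2 replicate 1) to 1664 and 1514 (without sgWDR77-2 replicate 1). The balance was not stable, since scaling by library totals alone gave 716 higher and 1185 lower, RLE factors 949 and 979, and leaving out sgWDR77-1 replicate 2 459 and 510.

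How many genes were called depended on the sgRNA. sgPRMT5-1 against sgWDR77-2 gave 96 higher and 73 lower genes, and sgPRMT5-1 against sgWDR77-1 gave 295 and 222. With sgPRMT5-2, the numbers were 1818 and 1532 against sgWDR77-2 and 2244 and 2017 against sgWDR77-1. The PRMT5 sgRNAs also differed from each other, with 1389 genes higher and 1301 lower in sgPRMT5-2 than in sgPRMT5-1. sgWDR77-2 differed from sgWDR77-1 in 14 higher and 3 lower genes, with 1758 genes at an unadjusted p under 0.05. These numbers do not by themselves measure the size of a difference. The replicates of sgPRMT5-2 were far closer to each other than those of sgWDR77-1, and the pooled fit had more libraries. What part either had in the numbers was not tested.

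**Figure D2:**
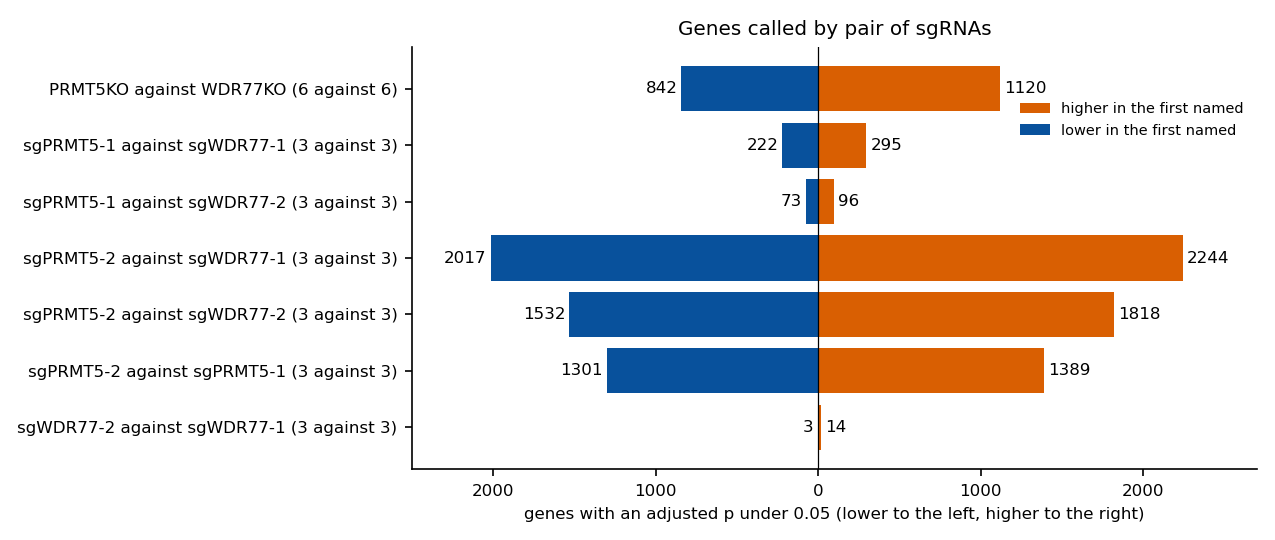
Number of genes with an adjusted p under 0.05 (horizontal axis), lower to the left and higher to the right, for the pooled comparison, the 4 pairs of a PRMT5 sgRNA with a WDR77 sgRNA, and the pairs within a gene. The pairs with sgPRMT5-2 gave 2244 and 1818 higher genes, and the pairs with sgPRMT5-1 gave 295 and 96.

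The direction was mostly shared by the PRMT5 sgRNAs, although the size was not. Among the 1120 genes called higher, sgPRMT5-1 alone lay above WDR77KO in 1109, and among the 842 called lower it lay below in all 842. sgPRMT5-1 libraries are part of the pooled estimate, so this is a description. The median log2 fold change of the genes called higher was 0.34 with sgPRMT5-1 and 0.55 with sgPRMT5-2, and that of the genes called lower was -0.46 and -0.90. The PRMT5 sgRNAs differed from each other by the test in 439 of the genes called higher and 318 of those called lower. When the libraries of 1 sgRNA were treated as correlated, 271 genes were higher (1.93%) and 190 lower (1.36%). Genes called in each of the 4 pairs of sgRNAs numbered 50 higher (0.357%) and 31 lower (0.221%).

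The sgNeg level shows which knockout had left it. It was placed on the line from the mean of WDR77KO to the mean of PRMT5KO, with no test. Of the 1120 genes called higher, sgNeg lay at or beyond the WDR77KO mean in 316, near it in 203, between the knockouts in 349, near PRMT5KO in 101 and at or beyond PRMT5KO in 151. Of the 842 called lower, the numbers in that order were 240, 167, 295, 72 and 68. Among the 50 genes higher in all 4 pairs the order turned, since sgNeg lay at or beyond the PRMT5KO mean in 22, near it in 10, between in 12, and on the WDR77KO side in 3 and 3. Among the 31 genes lower in all 4 pairs, sgNeg lay at or beyond the WDR77KO mean in 11, near it in 1, between in 14, near PRMT5KO in 1 and at or beyond it in 4. By the pooled means, WDR77KO was thus mostly the group farther from sgNeg among the 50, but not among the 31.

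Against sgNeg, which both comparisons share, PRMT5KO had 1229 higher (8.73%) and 1168 lower (8.3%) of 14071 genes, and WDR77KO had 118 higher (0.838%) and 359 lower (2.55%) of 14073. These serve only to say which knockout moved.

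Among the gene lists with at least 8 genes tested, out of 38, interferon-stimulated genes had the median farthest from 0. For that reason, and only after its values were seen, its count was followed through every alternative. Type I and type III interferons switch on antiviral genes through the interferon-stimulated response element in their promoters. Of 45 genes listed, 44 were tested, and 35 were lower and 0 higher in PRMT5KO than in WDR77KO by limma voom, with 37 lower and 0 higher at an unadjusted p under 0.05. The background was 6.01% lower and 7.99% higher. All 44 estimates lay below 0, with a median of -0.72 beside 0.02 over all genes, and under the other scalings 36 were called lower. When libraries of 1 sgRNA were treated as correlated, 24 stayed lower, and without sgWDR77-1 replicates 2 and 3 there were 20. The libraries did not overlap for 19 of the 44, beside 1.8% of all genes, and 10 were lower in all 4 pairs, beside 0.221%. IRF9, a factor that binds the element, was listed at 0 reads in every library, so it could not be measured here.

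MX1, which blocks incoming viral nucleocapsids, stood at 27.1, 33.95 and 43.7 CPM in PRMT5KO, 103, 112 and 239 in WDR77KO and 75, 43.2 and 43.9 in sgNeg. Its groups did not overlap, and sgNeg lay between them, with replicate 2 just inside the PRMT5KO range. The log2 fold change was -1.96 (SE 0.186, adjusted p = 7.06e-06 by limma voom with Benjamini-Hochberg adjustment). IFI44L, a feedback gene of the response, stood at 18.5, 26.8 and 50.1 CPM in PRMT5KO, 90.1, 109.9 and 253 in WDR77KO and 57.4, 47.5 and 45.4 in sgNeg. The highest value came from sgWDR77-1 replicate 3, and the sgPRMT5-2 libraries were the lowest (log2 fold change -2.04, adjusted p = 0.000135 by limma voom with Benjamini-Hochberg adjustment). RSAD2, whose product viperin makes a chain-terminating nucleotide, stood at 4.82, 6.90 and 9.78 CPM in PRMT5KO, 19.8, 22.4 and 33.9 in WDR77KO and 15.2, 17.1 and 12.9 in sgNeg. All 3 groups were separate, with sgNeg in the middle (log2 fold change -1.78, adjusted p = 2.85e-05 by limma voom with Benjamini-Hochberg adjustment).

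IFI27, a mitochondrial protein of the response, stood at 6.79, 11.1 and 15.7 CPM in PRMT5KO, 18.5, 56.2 and 124 in WDR77KO and 18.8, 8.71 and 8.89 in sgNeg. Here sgNeg sat mostly with PRMT5KO, and the WDR77KO libraries spread widely above (log2 fold change -2.29, SE 0.384, adjusted p = 0.00158 by limma voom with Benjamini-Hochberg adjustment). OAS2, a sensor of double-stranded RNA, stood at 10.4, 14.3 and 35.4 CPM in PRMT5KO, 43.5, 57.9 and 157 in WDR77KO and 59.3, 38.5 and 37.2 in sgNeg. Its WDR77KO libraries lay around sgNeg apart from sgWDR77-1 replicate 3, and the sgPRMT5-2 libraries were far below (log2 fold change -1.99, adjusted p = 0.00109 by limma voom with Benjamini-Hochberg adjustment). MX2, at 1.35, 2.65 and 8.10 CPM in PRMT5KO and 9.82, 12.1 and 40.9 in WDR77KO, had a log2 fold change of -2.27. It did not pass with every sgRNA pair.

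Further members were called at smaller differences. The transcription factor STAT2 had -0.63 and PARP9 had -0.80, both without overlap. IRF7, which amplifies interferon production, had -1.03, and the RNA sensor IFIH1 had -0.79. BST2, which tethers virions to the cell surface, had -0.74 and passed in all 4 pairs.

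The 9 members not called also had estimates below 0, and they included some of the best known. ISG15, a ubiquitin-like modifier, stood at 62.2, 67.1 and 79.5 CPM in PRMT5KO, 37.7, 85.1 and 118 in WDR77KO and 61.6, 53.2 and 62.4 in sgNeg. The PRMT5KO libraries lay within the wider WDR77KO range, and the log2 fold change was -0.16 (adjusted p = 0.597 by limma voom with Benjamini-Hochberg adjustment). IFITM3 had -0.32, USP18 had -0.37, and ISG20 had -0.01. The other 5 were DDX58, IRF1, OASL, SAMD9 and IFITM2. The list therefore did not move as 1 block at equal size, and its log2 fold changes ran from -2.97 for GBP6 to -0.01 for ISG20.

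Summed over the list, the level was 4376 to 6031 CPM in sgWDR77-1, 4348 to 4776 in sgWDR77-2, 3537 to 4007 in sgNeg, 3344 to 3764 in sgPRMT5-1 and 2477 to 2539 in sgPRMT5-2. The 4 sgRNAs thus fell on both sides of sgNeg, with both WDR77 sgRNAs above its range, sgPRMT5-2 below it, and sgPRMT5-1 overlapping it. The sgPRMT5-1 median over the list was -0.46 against WDR77KO and the sgPRMT5-2 median -0.99. Among the 35 genes called, the sgNeg mean lay between the knockouts in 22. Against sgNeg, PRMT5KO had 17 of the 44 lower and 0 higher, and WDR77KO had 10 higher and 1 lower by limma voom. These comparisons share the sgNeg libraries. sgPRMT5-1 alone against WDR77KO left 10 lower (beside 50 of 13992 genes) and sgPRMT5-2 alone 37 (1499 of 14071). PRMT5KO against sgWDR77-1 alone gave 33 (1448 of 14074), and against sgWDR77-2 alone 19 (119 of 13959).

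Genes upstream of the response were called lower in about the share of all genes. Of 17 interferon receptors, kinases and sensors tested, 1 was lower (5.88%), beside 6.01% of all genes. It was IFNGR1 (-0.27, adjusted p = 0.037 by limma voom with Benjamini-Hochberg adjustment). By limma voom 0 were higher, with 4 lower and 0 higher at an unadjusted p under 0.05. The interferons themselves were at the limit of detection, with at most 1 read of IFNB1, 3 of IFNL1, 4 of IFNL3 and 5 of IFNE in any library. IFNL1 summed to 1 read in PRMT5KO and 8 in WDR77KO, and these genes had too few reads to test. Of 14 genes of antigen presentation by MHC class I, 3 were lower (TAPBP, PSMB8, HLA-F), beside 6.01%, and 0 higher by limma voom, with 8 lower and 0 higher at an unadjusted p under 0.05. None of these calls, nor that of IFNGR1, held with the sgRNA as a block. The median of the MHC list was -0.24, and TAP2 was listed at 0 reads in every library.

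Promoters were searched for 5 short motifs, each paired with a list, and that of the interferon list is described here. The core of the response element was searched as GAAANNGAA on either strand in the RefSeq promoter windows (GRCh38.p14), 250 bases before to 50 bases after the gene start. It was found in 23 of 33 list members with a window (69.7%), in 670 of 10354 tested genes with a window (6.47%) and in 2264 of 27305 promoters in all (8.29%). It was in 19 of the 28 called members and in 4 of the 5 not called, so the letters did not separate called from not called. Of the tested genes with the letters, 69 (10.3%) were called lower, beside 6.01% of all genes, but 19 of the 69 were members of the list itself. The median log2 fold change of the carriers was 0.01. The share called lower was also above 6.01% among carriers of the NF-kB motif (12 of 125, 9.6%), the CHR of cell cycle genes (7.91%) and the CARE of ATF4 targets (13 of 171, 7.6%), and was 6.01% among carriers of the ARE of NRF2 targets. These shares were not tested against each other. The stretches below lie upstream of the gene start and are written on the gene's strand, with each match in capitals. They show 5 called genes, chosen after their values were seen, and ISG15, which was not called although its stretch holds 3 overlapping matches.
RSAD2 (chr2:6865776-6865844, plus strand): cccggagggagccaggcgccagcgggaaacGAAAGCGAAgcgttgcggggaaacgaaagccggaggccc
IFI44L (chr1:78620254-78620322, plus strand): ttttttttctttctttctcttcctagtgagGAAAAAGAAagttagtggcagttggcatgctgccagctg
BST2 (chr19:17405722-17405790, minus strand): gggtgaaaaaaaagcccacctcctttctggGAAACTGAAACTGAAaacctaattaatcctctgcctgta
IFIH1 (chr2:162318810-162318878, minus strand): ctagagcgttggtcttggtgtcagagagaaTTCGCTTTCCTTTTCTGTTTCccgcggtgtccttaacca
IFI27 (chr14:94110599-94110667, plus strand): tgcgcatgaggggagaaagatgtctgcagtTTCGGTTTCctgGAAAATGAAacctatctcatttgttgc
ISG15 (chr1:1013354-1013422, plus strand): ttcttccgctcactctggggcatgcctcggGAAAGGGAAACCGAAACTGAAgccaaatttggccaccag
RSAD2, IFI44L and BST2 carry the element in the forward direction and IFIH1 in the reverse direction, while IFI27 carries it in both. A match is a description of the letters, and binding was not measured.

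**Figure D3:**
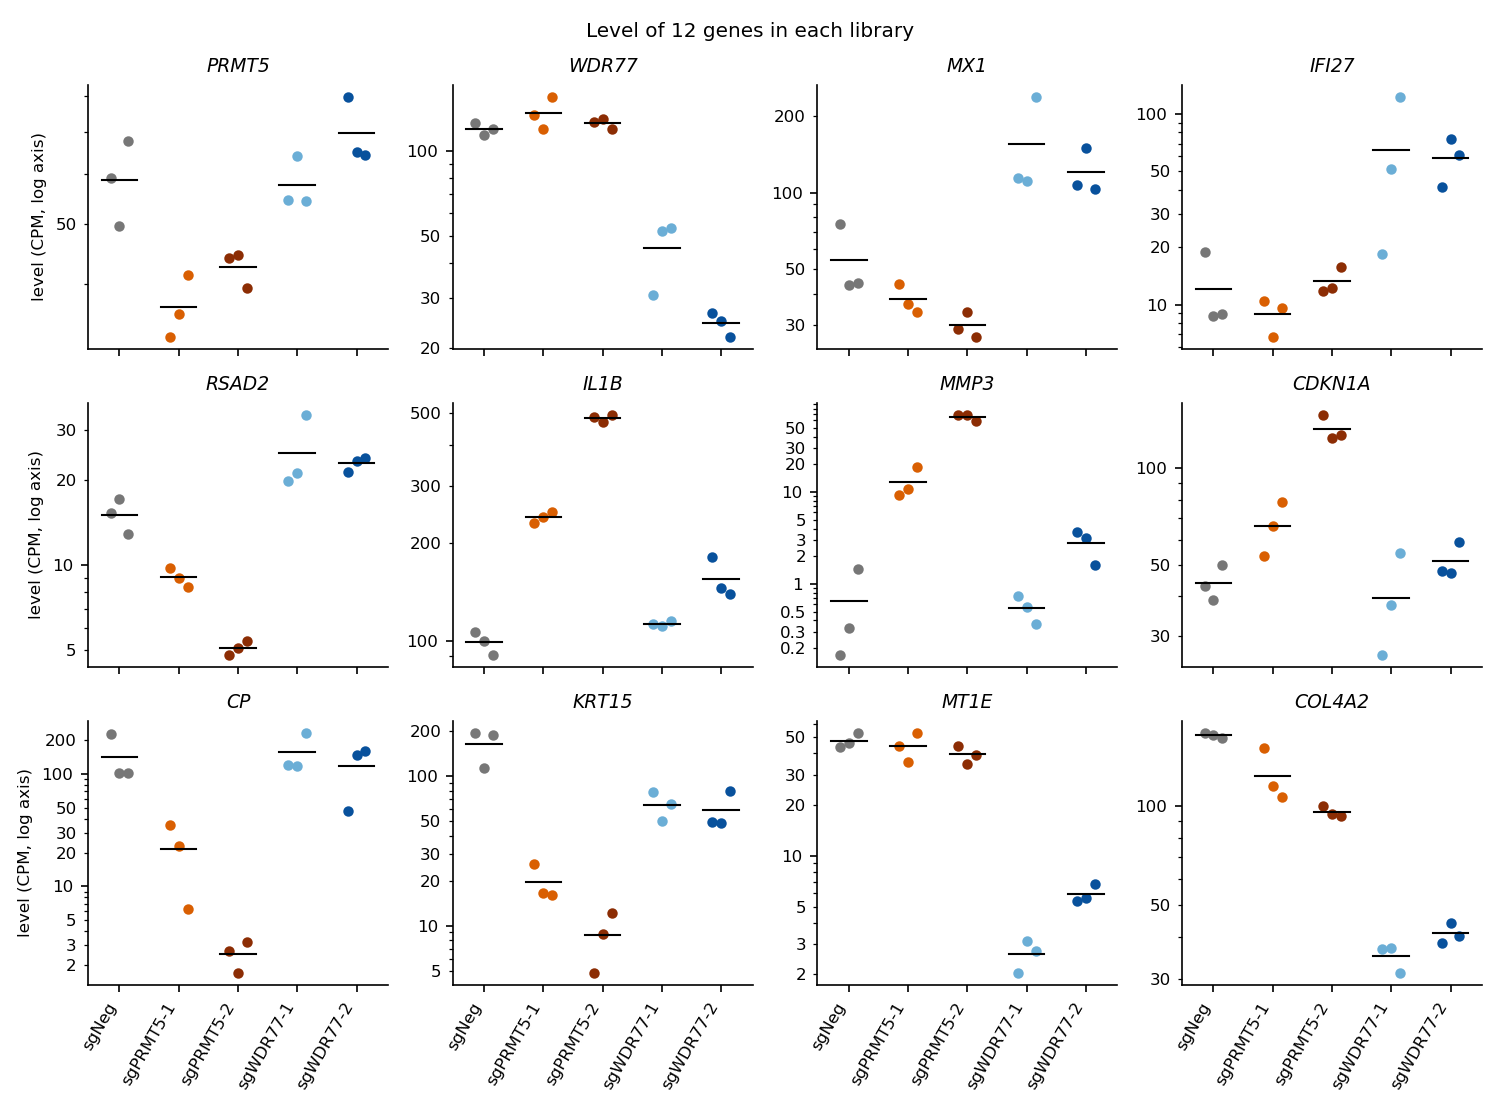
Level of 12 genes in CPM (vertical axes, log scale) in each of the 15 libraries, by sgRNA on the horizontal axes, with points for libraries and bars for the mean of 3. MX1, IFI27 and RSAD2 are lower in all 6 PRMT5KO libraries than in all 6 WDR77KO libraries, IL1B and MMP3 are higher, and for MT1E and COL4A2 the WDR77KO libraries are the ones far from sgNeg.

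Cytokines split by gene. Of 24 tested, 5 were higher and 2 lower in PRMT5KO, beside 7.99% and 6.01%, with a median of -0.18. IL1B, the secreted alarm cytokine, stood at 229.9, 359.9 and 495 CPM in PRMT5KO, 111, 128 and 181 in WDR77KO and 107, 100.1 and 90.9 in sgNeg. All PRMT5KO libraries lay above all others, with sgPRMT5-2 far above sgPRMT5-1 (means 484 and 240.0 CPM). The log2 fold change was 1.37 (SE 0.202, adjusted p = 0.000623 by limma voom with Benjamini-Hochberg adjustment). CSF2, the growth factor GM-CSF, stood at 4.11, 16.1 and 30.6 CPM in PRMT5KO, 0.36, 1.02 and 2.59 in WDR77KO and 0.508, 1.31 and 0.544 in sgNeg. Every PRMT5KO library was above every other, and the sgPRMT5-2 mean (28.4 CPM) was several times the sgPRMT5-1 mean (5.53 CPM). Its log2 fold change was 3.45 (SE 0.866, adjusted p = 0.0159 by limma voom with Benjamini-Hochberg adjustment).

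IL1A (0.75), IL11 (2.51) and IL23A (1.13) were the other cytokines called higher. IL23A and CXCL1 were lost with the sgRNA as a block. In the lower direction, CXCL1 had -0.79 and CX3CL1 had -3.17. CX3CL1, a membrane-bound chemokine, stood at 0, 0.385 and 1.02 CPM in PRMT5KO, 2.65, 3.01 and 4.74 in WDR77KO and 5.76, 5.09 and 11.2 in sgNeg. Both knockouts lay below sgNeg, PRMT5KO near 0, and the knockouts did not overlap (adjusted p = 0.000544 by limma voom with Benjamini-Hochberg adjustment). CXCL8, CXCL2, CXCL3 and CCL20 were not called. Of 17 genes of the NF-kB pathway, 4 were higher (TRAF1, NFKB2, TNIP1, RELA) and 2 lower (REL, NFKBIZ), beside 7.99% and 6.01%, with a median of 0.09, and the block kept TRAF1, NFKB2 and TNIP1. That median was -0.07 against sgWDR77-1 alone and 0.15 against sgWDR77-2 alone, and it turned negative without each sgPRMT5-2 replicate in turn. With sgPRMT5-1 alone 0 of the 17 were called.

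Among AP-1 and immediate early genes, 4 of 21 were higher (FOSL1, PHLDA1, DUSP6, SPRY2) and 4 lower (EGR1, EGR2, EGR3, JUNB), beside 7.99% and 6.01%, with a median of -0.06. As a correlated block, the sgRNA left 3 higher and 1 lower (EGR1). Against sgWDR77-1 alone 3 were higher and 3 lower, beside 1451 and 1448 of 14074 genes, with a median of 0.18. Against sgWDR77-2 alone 0 were higher and 6 lower, beside 164 and 119 of 13959, with a median of -0.29. The difference between the WDR77 sgRNAs in this list was not tested here. FOSL1, the AP-1 subunit of invasive squamous cells, stood at 154, 298 and 412 CPM in PRMT5KO, 97.5, 136 and 171 in WDR77KO and 99.05, 136 and 139.5 in sgNeg. The sgPRMT5-2 libraries were the highest, and the sgPRMT5-1 libraries overlapped WDR77KO (log2 fold change 1.03, adjusted p = 0.0102 by limma voom with Benjamini-Hochberg adjustment). EGR1 went the other way, at 505, 596 and 759.5 CPM in PRMT5KO, 739, 1000 and 1340 in WDR77KO and 744, 739 and 816 in sgNeg. Its groups overlapped, and the log2 fold change was -0.76 (adjusted p = 0.00248 by limma voom with Benjamini-Hochberg adjustment). Receptors and ligands of the EGFR family were split as well, with TGFA (0.58), HBEGF (0.99) and EGFR (0.22) higher and BTC (-0.97), EGF (-0.88) and ERBB3 (-0.36) lower among 10 tested, beside 7.99% and 6.01%, of which the block kept TGFA and ERBB3. Only 1 was higher with RLE factors, with totals alone and without some single libraries, such as sgPRMT5-2 replicate 1.

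Matrix genes gave the largest share of calls in the higher direction among lists of over 10 genes. Of 31 genes of epithelial-mesenchymal transition and matrix tested, 16 were higher and 4 lower, beside 7.99% and 6.01%, with a median of 0.46. With libraries of 1 sgRNA treated as correlated, 12 stayed higher, and 4 were higher in all 4 pairs (MMP1, MMP3, COL4A1, COL4A2). Against sgWDR77-2 alone 3 were higher, beside 164 of 13959 genes, with sgPRMT5-1 alone 5, beside 105 of 13992, and without sgWDR77-1 replicates 2 and 3 there were 6, beside 204 of 13927. MMP3, the protease stromelysin 1, stood at 9.32, 39.03 and 69.3 CPM in PRMT5KO, 0.365, 1.18 and 3.66 in WDR77KO and 0.169, 0.329 and 1.45 in sgNeg. Its PRMT5KO libraries lay above all others, and the sgPRMT5-2 mean (65.6 CPM) far above the sgPRMT5-1 mean (12.9 CPM). MMP3 had a log2 fold change of 4.44 (SE 1.07, adjusted p = 0.0131 by limma voom with Benjamini-Hochberg adjustment).

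MMP1, the interstitial collagenase beside it on chromosome 11, stood at 17.7, 52.96 and 88.8 CPM in PRMT5KO, 6.11, 9.03 and 14.2 in WDR77KO and 41.6, 24.3 and 48.8 in sgNeg. The sgPRMT5-2 libraries lay above sgNeg, the sgPRMT5-1 libraries at its lower end or below it, and WDR77KO below both (log2 fold change 2.20, adjusted p = 0.00731 by limma voom with Benjamini-Hochberg adjustment). COL4A2, a chain of basement membrane collagen, stood at 93.1, 104 and 149.6 CPM in PRMT5KO, 31.2, 37.8 and 44.3 in WDR77KO and 167, 164 and 161 in sgNeg. Both knockouts were below sgNeg and WDR77KO was the lower, without overlap. Its log2 fold change was 1.51 (SE 0.12, adjusted p = 8.66e-07 by limma voom with Benjamini-Hochberg adjustment). COL4A1, which shares its promoter region head to head, had 1.12.

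IGFBP3, SPARC and SPP1 ran against the list without overlap. IGFBP3, a carrier of insulin-like growth factors, stood at 20.99, 26.6 and 31.9 CPM in PRMT5KO, 53.9, 69.8 and 86.6 in WDR77KO and 95.3, 58.7 and 72.9 in sgNeg. WDR77KO sat with sgNeg and PRMT5KO far below (log2 fold change -1.45, SE 0.133, adjusted p = 4.93e-06 by limma voom with Benjamini-Hochberg adjustment). SPARC, a matrix glycoprotein, stood at 0.34, 0.728 and 1.18 CPM in PRMT5KO, 2.96, 5.70 and 6.84 in WDR77KO and 12.2, 6.08 and 12.5 in sgNeg, and its log2 fold change was -2.70. SPP1, named after its values were seen, had -3.07. TGFBI was the other gene called lower (-0.67), with overlapping groups, and of the 4 lower genes only IGFBP3 and SPARC stayed when the sgRNA was a block. AXL, a receptor kinase of the mesenchymal state that was also named after its values were seen, stood at 62.1, 98.7 and 122 CPM in PRMT5KO, 19.9, 28.97 and 53.5 in WDR77KO and 46.7, 45.5 and 54.96 in sgNeg. Its groups did not overlap (log2 fold change 1.58, adjusted p = 0.000368 by limma voom with Benjamini-Hochberg adjustment).

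**Figure D4:**
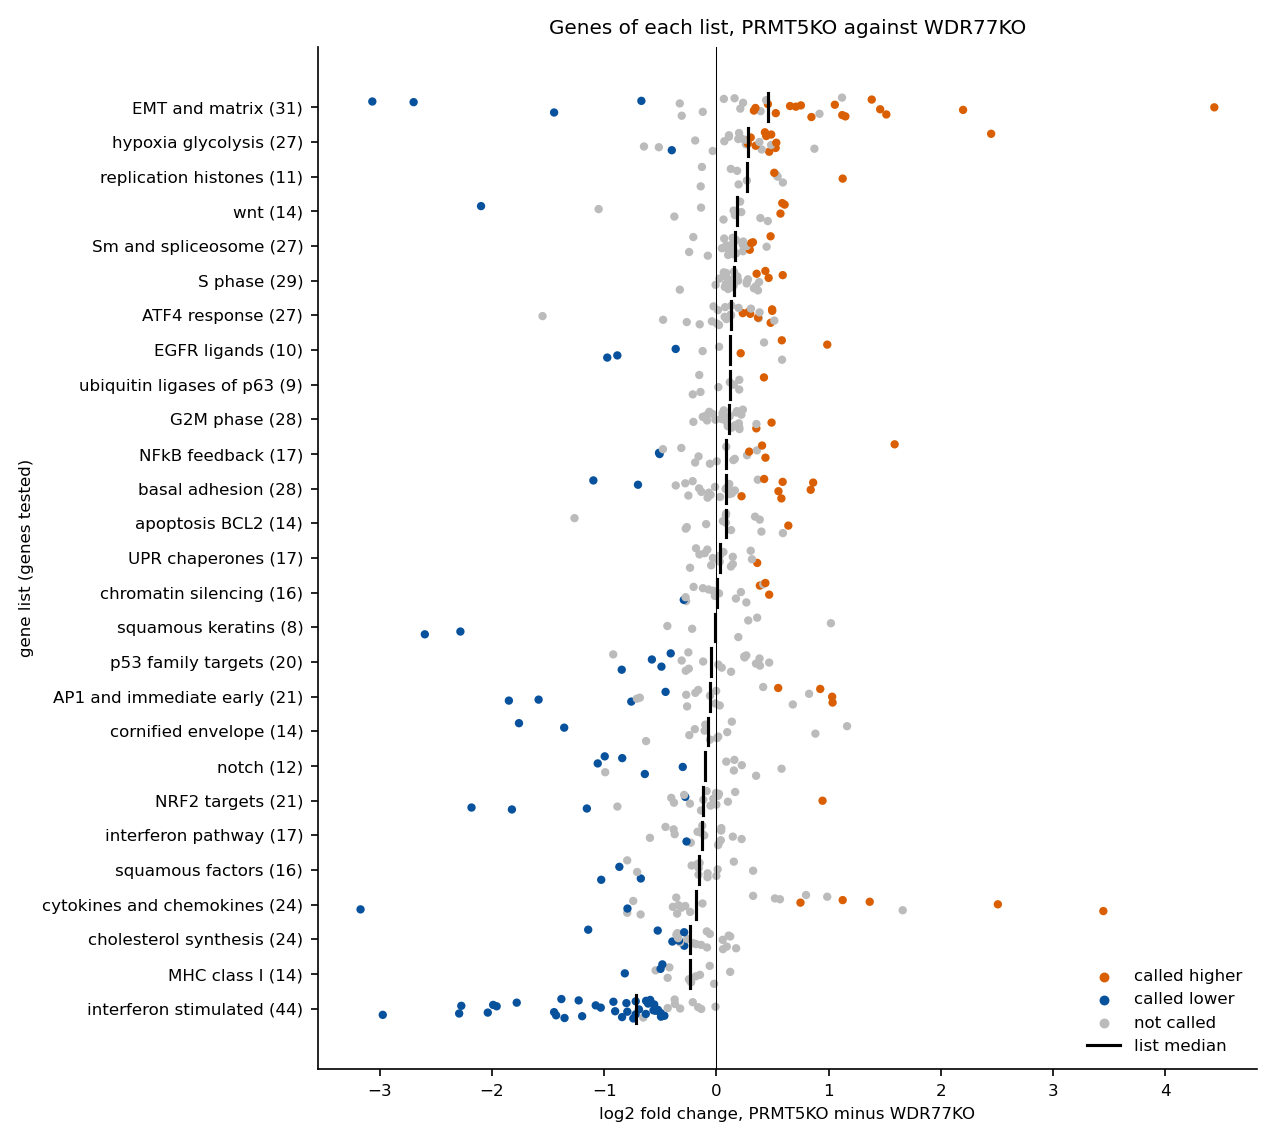
Log2 fold change of each tested gene (horizontal axis) by gene list (vertical axis), for lists with at least 8 genes tested, with genes called higher, called lower and not called in separate colours and the list median as a bar. The interferon-stimulated list lies wholly below 0 with a median of -0.72, and the matrix list has the highest median, 0.46.

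In a further set of genes WDR77KO lay below sgNeg and PRMT5KO lay near or above it. MT1E, a metal-binding metallothionein, stood at 34.9, 41.8 and 52.9 CPM in PRMT5KO, 2.03, 4.27 and 6.84 in WDR77KO and 43.5, 46.4 and 52.6 in sgNeg. The WDR77KO libraries were all far below the others, with sgWDR77-1 lower than sgWDR77-2. The log2 fold change was 3.36 (SE 0.236, adjusted p = 1.84e-07 by limma voom with Benjamini-Hochberg adjustment). Its relatives on the same chromosome, named after their values were seen, did not share the pattern. MT2A had 1.13 with PRMT5KO above sgNeg, MT1X had 0.31 and MT1F -0.11, and neither of the last 2 was called. Reads of near-identical metallothionein genes can be dropped or misplaced, which limits these values.

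CCND2, a cyclin that activates CDK4 and CDK6, stood at 65.2, 85.2 and 91.2 CPM in PRMT5KO, 18.7, 20.2 and 23.7 in WDR77KO and 49.3, 53.2 and 63.7 in sgNeg. The 3 groups were separate, with PRMT5KO above sgNeg and WDR77KO far below it. The gene had the smallest adjusted p of the comparison, at a log2 fold change of 1.95 (SE 0.115, adjusted p = 1.86e-08 by limma voom with Benjamini-Hochberg adjustment). PXDN, a peroxidase that cross-links collagen IV, stood at 50.9, 72.4 and 81.2 CPM in PRMT5KO, 19.9, 23.99 and 27.02 in WDR77KO and 43.5, 46.7 and 56.6 in sgNeg. WDR77KO was lowest without overlap (log2 fold change 1.51, adjusted p = 2.33e-06 by limma voom with Benjamini-Hochberg adjustment). GJC1, a connexin, stood at 5.44, 6.52 and 9.02 CPM in PRMT5KO, 0.385, 0.826 and 1.44 in WDR77KO and 3.05, 5.92 and 5.44 in sgNeg, with WDR77KO alone near 0 (log2 fold change 2.87).

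In other genes both knockouts lay below sgNeg and WDR77KO lay farther. GJA1, the connexin 43 gene, stood at 12.3, 16.4 and 29.2 CPM in PRMT5KO, 2.56, 3.58 and 7.38 in WDR77KO and 31.5, 34.7 and 34.1 in sgNeg. The 3 groups did not overlap, and sgPRMT5-1 lay nearer to sgNeg than sgPRMT5-2 (log2 fold change 2.18, SE 0.267, adjusted p = 0.000109 by limma voom with Benjamini-Hochberg adjustment). IGF2BP1, an oncofetal RNA-binding protein, stood at 5.14, 6.95 and 8.24 CPM in PRMT5KO, 0.353, 0.925 and 1.85 in WDR77KO and 14.7, 13.3 and 13.1 in sgNeg. It had the largest log2 fold change of the 5 oncofetal genes tested, 2.86 (adjusted p = 5.41e-05 by limma voom with Benjamini-Hochberg adjustment). HMGA2 (1.21), HMGA1 (0.44) and IGF2BP2 (0.46) were also higher in PRMT5KO, though above sgNeg or near it, and HMGA1 and IGF2BP2 were lost with the block. SORBS3 (2.00), CEMIP (2.03), GALNT6 (1.67) and SULF2 (1.60) had the order of GJA1 in their means, and all 4 were higher in every pair of sgRNAs.

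Hypoxia and glycolysis genes were higher in 10 of 27, beside 7.99%, and lower in 1 (ALDOC), with a median of 0.28. SLC2A3, a glucose transporter, stood at 3.91, 4.42 and 8.15 CPM in PRMT5KO, 0.185, 0.919 and 1.80 in WDR77KO and 15.8, 13.97 and 8.89 in sgNeg. Here too WDR77KO was farthest from sgNeg (log2 fold change 2.45, adjusted p = 0.00109 by limma voom with Benjamini-Hochberg adjustment). SLC2A1, the main glucose transporter of these cells, stood at 559, 576 and 626 CPM in PRMT5KO, 305, 443 and 460.1 in WDR77KO and 529, 469.7 and 535 in sgNeg. The knockouts lay on opposite sides of sgNeg (log2 fold change 0.49, adjusted p = 0.00302 by limma voom with Benjamini-Hochberg adjustment). LDHA (0.53), BNIP3 (0.53) and VEGFA (0.43) were smaller. With libraries of 1 sgRNA treated as correlated, 5 of the 10 stayed. Against sgWDR77-1 alone 17 were higher, beside 1451 of 14074 genes, with a median of 0.44, and against sgWDR77-2 alone 2, beside 164 of 13959, with a median of 0.10. Without sgWDR77-1 replicate 2 there were 5. The difference between the WDR77 sgRNAs in this list was not tested.

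Amino acid response genes driven by ATF4 were higher in 7 of 27, beside 7.99%, and lower in 0 by limma voom, with 10 higher and 1 lower at an unadjusted p under 0.05 and a median of 0.13. The leading members, SLC7A5 (0.50) and SLC3A2 (0.50), form 1 amino acid exchanger, and only SLC7A5 stayed when the sgRNA was a block. Leaving out 1 library took the 7 down to as few as 2. ATF4 itself had 0.00. Chaperones of the unfolded protein response had 1 of 17 higher, beside 7.99%. That gene, DNAJC3, was lost with the block, and the median of the chaperones, 0.03, turned to -0.03 when libraries were scaled by totals alone.

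Surface and adhesion genes of basal keratinocytes were higher in 7 of 28 and lower in 2, beside 7.99% and 6.01%, with a median of 0.09. The laminin chain LAMB3 (0.86) and the integrin ITGA5 (0.84) were higher without overlap. LAMB3 stood at 356, 501 and 644 CPM in PRMT5KO, 208, 265 and 343 in WDR77KO and 325, 269 and 292 in sgNeg. The sgPRMT5-2 libraries were far above the rest, and sgPRMT5-1 was just above WDR77KO (adjusted p = 0.00306 by limma voom with Benjamini-Hochberg adjustment). LAMA3 had -0.28 and was not called. PKP1 (-1.10) and ITGB8 (-0.70) were lower. With the sgRNA as a block, 4 of the 7 stayed higher and both lower calls were lost.

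Keratins differed in both directions. KRT15, a keratin of basal progenitors, stood at 4.82, 14.1 and 25.97 CPM in PRMT5KO, 48.6, 57.7 and 79.4 in WDR77KO and 196, 114 and 188 in sgNeg. All 3 groups were separate, with both knockouts below sgNeg and PRMT5KO lowest (log2 fold change -2.28, SE 0.269, adjusted p = 6.8e-05 by limma voom with Benjamini-Hochberg adjustment). KRT13, a keratin of mucosal epithelium, stood at 0.685, 1.10 and 2.90 CPM in PRMT5KO, 3.70, 8.17 and 12.8 in WDR77KO and 45.5, 33.7 and 52.4 in sgNeg. It had the same order, and the log2 fold change was -2.60 (adjusted p = 0.0007 by limma voom with Benjamini-Hochberg adjustment). Of 8 squamous keratins tested, these 2 were lower, beside 6.01% of all genes, and the other 6 were not called. Of 6 simple keratins tested, KRT8 (0.52) and KRT18 (0.58), which pair with each other, were higher in PRMT5KO, beside 7.99% of all genes. Their groups overlapped, and KRT8 was lost with the block.

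Of 14 cornified envelope and late differentiation genes tested, S100A9 (-1.76) and LCN2 (-1.36) were lower, beside 6.01%, and 0 higher by limma voom, with 1 higher at an unadjusted p under 0.05. Some alternatives, such as limma-trend and sgPRMT5-1 alone, called 1 higher. With sgPRMT5-1 alone 0 were lower, beside 50 of 13992 genes. Of the 32 genes listed, 18 had too few reads to test. Among 16 squamous transcription factors, GATA3 (-1.03), SOX2 (-0.86) and GRHL1 (-0.67) were lower, beside 6.01%, and 0 higher by limma voom, with 0 higher at an unadjusted p under 0.05 and a median of -0.16. The Notch list had 5 of 12 lower, beside 6.01%, and 0 higher by limma voom, with 2 higher at an unadjusted p under 0.05. NOTCH3, a receptor, stood at 54.2, 78.8 and 122 CPM in PRMT5KO, 108, 149.5 and 157 in WDR77KO and 169.6, 162 and 155 in sgNeg. WDR77KO lay mostly below sgNeg, and the sgPRMT5-2 libraries were lowest (log2 fold change -0.84, adjusted p = 0.00755 by limma voom with Benjamini-Hochberg adjustment). The target HES1 had -0.64, the feedback inhibitor NRARP -0.99, the coactivator MAML2 -1.06 and the ligand JAG1 -0.30, while NOTCH1 was not called. SOX2 and JAG1 were lost with the sgRNA as a block. With sgPRMT5-1 alone, 0 of the squamous factors and 1 of the Notch list were lower, beside 50 of 13992 genes. With sgPRMT5-2 alone the numbers were 3 and 6 (1499 of 14071 genes), and against sgWDR77-2 alone 1 and 2 (119 of 13959).

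The largest difference in the lower direction, among called genes with a mean of at least 5 CPM and no overlap, was that of CP, which encodes the copper oxidase ceruloplasmin. It stood at 1.70, 4.78 and 34.8 CPM in PRMT5KO, 46.4, 133 and 232 in WDR77KO and 224, 101 and 102 in sgNeg. WDR77KO overlapped sgNeg, while sgPRMT5-1 (mean 21.3 CPM) and above all sgPRMT5-2 (mean 2.52 CPM) were far below. The log2 fold change was -4.21 (SE 0.577, adjusted p = 0.000302 by limma voom with Benjamini-Hochberg adjustment). CD24, a surface sialoglycoprotein, stood at 1.20, 2.11 and 3.51 CPM in PRMT5KO, 6.93, 9.04 and 9.54 in WDR77KO and 18.96, 14.8 and 21.4 in sgNeg. Both knockouts were below sgNeg and PRMT5KO was near 0 (log2 fold change -1.93, adjusted p = 6.08e-05 by limma voom with Benjamini-Hochberg adjustment). CRABP2, which carries retinoic acid to the nucleus, had -1.39 in the same order of means, and the lectin CLEC7A had -1.45.

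Of 21 NRF2 targets, 4 were lower and 1 higher (HMOX1, 0.95), beside 6.01% and 7.99%, with a median of -0.12. The lower genes were the aldo-keto reductases AKR1C1 (-1.15), AKR1C2 (-2.18) and AKR1B10 (-1.82), and PGD (-0.28). AKR1C1 and AKR1C2 are near-identical in sequence, so reads that fit both may be missing from either. Only AKR1C1 and AKR1C2 stayed with the sgRNA as a block. NQO1, GCLM and TXNRD1, the usual markers of the pathway, were not called. Cholesterol synthesis genes were lower in 6 of 24, beside 6.01%, and higher in 0 by limma voom, with 14 lower and 0 higher at an unadjusted p under 0.05 and a median of -0.23. Leaving out 1 library gave 2 to 11 lower, and none of these calls held when libraries of 1 sgRNA were treated as correlated.

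The genes of the S phase, the G2 and M phases and the replication histones that were called in the main fit were all higher. Of 29 genes of the S phase, 4 were higher (RFC2, MCM7, RRM1, UHRF1), beside 7.99%, and 0 lower by limma voom, with 12 higher and 0 lower at an unadjusted p under 0.05 and a median of 0.16. The S phase number was 11 without sgWDR77-2 replicate 1, beside 1664 of 14041 genes, and 11 against sgWDR77-1 alone, beside 1451 of 14074. With sgPRMT5-1 alone the number was 0 (beside 105 of 13992 genes). It was also 0 against sgWDR77-2 alone (164 of 13959) and without sgWDR77-1 replicates 2 and 3 (204 of 13927). Of 28 genes of the G2 and M phases, 2 were higher (AURKA, CDC20), beside 7.99%, and 0 lower, with 6 and 0 at an unadjusted p under 0.05 and a median of 0.11. Replication histones had 2 of 11 higher, beside 7.99%. Of these 8 calls, only RFC2 held when the sgRNA was a block, and sgPRMT5-2 against sgWDR77-2 gave 4 genes of the G2 and M phases lower, beside 1532 of 13982 genes. Inhibitors of cyclin-dependent kinases were split, with CDKN1A higher (1.08) and CDKN2C (-0.82) and CDKN1B (-0.44) lower among 7, beside 7.99% and 6.01%. CDKN1B was lost with the block, and 0 of the 7 were called with sgPRMT5-1 alone or against sgWDR77-2 alone. Without sgWDR77-1 replicates 2 and 3, 0 were higher and 1 was lower. Of 20 other p53 family targets, 0 were higher and 4 lower (BTG2, SESN1, FDXR, XPC), beside 6.01%, by limma voom, with 5 higher at an unadjusted p under 0.05. Only BTG2 stayed with the sgRNA as a block, and some alternatives called members higher, such as 3 with all 15 libraries in 1 fit (beside 1357 of 14061 genes), 4 with the sgRNAs as separate groups (2082 of 14015) and 3 with sgPRMT5-2 alone (1802 of 14071). BCL2L1, which protects from apoptosis, was the 1 gene called among 14 of its family (0.64), beside 7.99%. It was not called with sgPRMT5-1 alone (0.25) or against sgWDR77-2 alone (0.56).

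Spliceosome genes, whose Sm proteins are substrates of the complex, were higher in 4 of 27 (U2AF2, SNRPF, SNRPE, PTBP1), beside 7.99%, and lower in 0 by limma voom, with 11 higher and 0 lower at an unadjusted p under 0.05. Their median was 0.16, the libraries of both knockouts overlapped for each of the 4, and none of these calls held when the sgRNA was a block. Of 16 chromatin silencing genes, HDAC1, TET3 and UHRF1 were higher and DNMT3B lower, beside 7.99% and 6.01%, and the median of 0.01 turned to -0.02 with RLE factors and -0.06 with totals alone. Only HDAC1 stayed with the block. Of 14 Wnt genes, WNT7A (0.61), WNT7B (0.59) and TCF7 (0.57) were higher and WNT5B was lower at under 2 CPM, beside 7.99% and 6.01%, and the block kept WNT7A and WNT7B. MHC class II had 3 genes with enough reads and 0 called by limma voom, with 1 lower at an unadjusted p under 0.05.

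Some genes separated the knockouts at levels of a few reads, with the sgNeg mean somewhere between the knockout means. CYP27B1, which activates vitamin D, stood at 0.611, 2.80 and 4.59 CPM in PRMT5KO, 0, 0.178 and 0.554 in WDR77KO and 0.339, 0.986 and 0.726 in sgNeg. CCBE1, FGF5 and the non-coding AC003092.1 were likewise higher in PRMT5KO with medians of at most 0.193 CPM in WDR77KO. In the other direction, CXCL17 stood at 0, 0 and 0.679 CPM in PRMT5KO, 0.77, 1.55 and 5.11 in WDR77KO and 1.35, 0.493 and 1.27 in sgNeg, and MEX3C, KCNJ2, PADI2 and GABRP had medians under 1 CPM in PRMT5KO. No fold is given for these 9 genes. The folds given above for genes with a library under 1 CPM, such as CSF2, MMP3, CX3CL1 and SPP1, also rest on few reads and are imprecise.

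Called genes differed by kind and level. Protein-coding genes made up 97.6% of the genes called higher, 91.2% of those called lower and 86.6% of all tested, and long non-coding RNAs 1.88%, 7.72% and 9.23%. The median level was 66.1 CPM among genes called higher, 19.9 CPM among those called lower and 22.2 CPM among all, and the medians of exonic length were 5136, 6353 and 5180 bases.

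Along the genome, chromosomes were looked at because Cas9 cuts on 14 and 1 and because copies can change in culture. The counts stand beside 7.99% higher and 6.01% lower over all genes tested. On chromosome 14, which carries PRMT5, 43 of 470 genes were lower (9.15%) and 13 higher (2.77%), with a median of -0.09. The shift lay distal of PRMT5, where 41 of 433 genes were lower and 11 higher with a median of -0.09, while the 36 proximal genes had a median of 0.03 with 1 lower and 2 higher. The distal stretch was not shifted throughout, since its last window, from 100 Mb, had a median of 0.10. In that window 5 of 55 genes were higher (9.09%), near the share of all genes. IFI27 lies in that distal stretch. On chromosome 1, 86 of 773 genes distal of WDR77 on the short arm were higher (11.1%) and 40 lower (5.17%) with a median of 0.05. The remaining 693 genes had 47 (6.78%) and 40 (5.77%), near the shares of all genes, with a median of 0.02. Chromosome 15 had 53 higher and 7 lower genes of 449, chromosome 11 had 108 and 37 of 775, and chromosome 10 had 71 and 26 of 536. Among 20 Mb windows with at least 30 genes tested, the largest shift was at the start of chromosome 9, with 12 of 52 genes lower and a median of -0.26. These chromosomes and windows were singled out after their values were seen, copy number was not measured, and its part in any difference was not tested.

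Mitochondrial transcripts were lower in 9 of 16, beside 6.01%, and higher in 0 by limma voom, with 0 higher at an unadjusted p under 0.05 and a median of -0.53. They followed the mitochondrial share of each library given above, in which sgPRMT5-1 was lowest, and sgNeg spread from 0.954% to 2.54%. All 4 genes tested on chromosome Y were called lower in PRMT5KO, beside 6.01% of all genes.

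**Figure D5:**
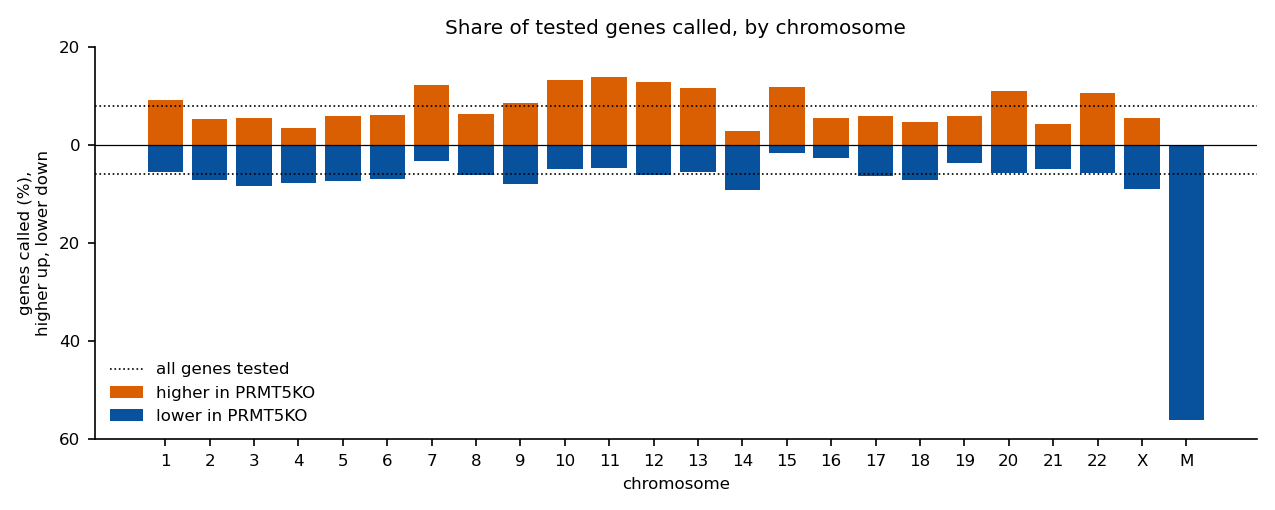
Percent of tested genes called higher (upward) and lower (downward) in PRMT5KO on each chromosome (horizontal axis), with dotted lines at the percent over all genes, 7.99% and 6.01%. Among nuclear chromosomes other than Y, chromosome 14 has the smallest share higher, 2.77%, and the mitochondrial genome (M) has 56.2% lower.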

How the data were processed

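Per the labels, the authors used STAR against hg38 and HTSeq, and deposited raw counts, 1 table per library with 60649 genes and 5 summary entries, which were dropped. The strand setting is not given, and the labels name a stranded kit while the paper names an unstranded one, so genes that overlap another are uncertain. Gene positions and types came from GENCODE release 44, which matched 60507 IDs.

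The libraries, gene lists, motifs and rules were chosen with earlier results of these data known. Groups came from the labels. Genes with a mean normalized count of at least 3 were tested in R 4.3.3 with limma voom from limma 3.58.1 after TMM scaling (trims 0.3 and 0.05), two-sided, with Benjamini-Hochberg adjustment over all genes tested and a threshold of 0.05. The principal components took all genes tested. The authors used DESeq2. It was not used here because an automatic check of the unit could not read the layout of these tables, although the labels call them raw counts. What DESeq2 would call was not tested. The code of the fits was tried on simulated data. Libraries held 5146711 to 6730428 reads on genes, so errors are wide where reads are few. The sgNeg mean of log2 CPM (pseudocount 0.5) counted as between the knockouts from 0.25 to 0.75 of the way from WDR77KO to PRMT5KO.

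Genes were named if they were PRMT5, WDR77, TP63, CDKN1A, ITCH, FBXO30 or FBXW7. Added were the 12 called genes with the largest log2 fold change in each direction with a mean of at least 5 CPM and no overlap, and the 5 smallest adjusted p-values in each direction. Up to 4 called genes of each of 38 lists with the smallest adjusted p were also named. So were up to 5 called genes in each direction with the largest fold change and the sgNeg mean anywhere between the knockout means, also near one of them. Other list members are given to show a list. AXL, AKAP12, PDGFB and the metallothioneins other than MT1E were on no list and were added after their values were seen.

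Alternatives were RLE, upper-quartile or library totals in place of TMM, the filter dropped or raised to 10, the replicate block, the sgRNA as a correlated block or as separate groups, all 15 libraries in 1 fit, sample quality weights, limma-trend, each sgRNA alone, each library left out, a difference of 1 log2 unit or more, and a call in all 4 pairs. A covariate for the share of reads outside genes, the fit without sgWDR77-1 replicates 2 and 3, and the count over interferon-stimulated genes were chosen after seeing the data. No set test was run.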

Additional observations from a re-analysis of the deposited data

Results flagged for a closer look

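Each of the 131 genes named by the rule and 3 library measures were checked, in each knockout, for a library set apart from the other 5 by a gap that is wide for the range of the group. Of 268 groups, 18 held such a library, and chance flags about 1 in 20 groups. sgWDR77-1 replicate 3 was set apart in interferon-stimulated genes, with MX2 at 40.9 CPM against 9.82 to 13.8, IFI44L at 253 CPM against 90.1 to 120, OAS2 at 157 CPM against 43.5 to 63.9 and RSAD2 at 33.9 CPM against 19.8 to 23.9 in the other WDR77KO libraries. sgWDR77-1 replicate 1 had FDXR at 14 CPM against 18 to 20.6, XPC at 36.4 CPM against 23.4 to 25, CD44 at 608 CPM against 436 to 478, SLC2A1 at 305 CPM against 398 to 460, DNMT3B at 41.2 CPM against 48.3 to 52.1 and IGF2BP2 at 113 CPM against 54.3 to 67.3. In sgWDR77-2 replicate 1, the genes were U2AF2 at 295 CPM against 181 to 217, PTBP1 at 642 CPM against 453 to 508, IFNGR1 at 127 CPM against 150 to 159 and KCNJ2 at 0.385 CPM against 1.59 to 2.19. sgWDR77-2 replicate 2 was apart in GALNT6 at 1.77 CPM against 3.51 to 5.11 and AC003092.1 at 0.177 CPM against 0. Among PRMT5KO libraries, sgPRMT5-1 replicate 3 had SLC3A2 at 626 CPM against 532 to 564, and sgPRMT5-1 replicate 2 had IDI1 at 145 CPM against 109 to 121. Without sgWDR77-1 replicate 3, 29 interferon-stimulated genes were called lower, against 35 with it.

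The PRMT5 sgRNAs were tested against each other for the 32 genes named from the paper, by fold change or by smallest adjusted p, and 20 differed. Over all 13976 genes 1389 were higher and 1301 lower in sgPRMT5-2. The log2 difference, sgPRMT5-2 minus sgPRMT5-1, and the adjusted p by limma voom with Benjamini-Hochberg adjustment follow each gene. Higher in sgPRMT5-2 were CDKN1A (1.04, 9.31e-07), ITCH (0.24, 0.0144), MMP3 (2.42, 3.11e-09), CSF2 (2.36, 3.82e-08), MMP1 (1.94, 1.73e-09), CCND2 (0.34, 0.01), TRAF1 (1.21, 0.000329), IFI27 (0.57, 0.0391) and PXDN (0.47, 0.00153). Lower in sgPRMT5-2 were TP63 (-0.23, 0.0495), GJA1 (-0.59, 0.0227), CP (-2.80, 0.00435), KRT15 (-1.27, 0.00121), MX2 (-1.56, 0.00673), IFI44L (-0.96, 0.000376), OAS2 (-1.21, 0.000431), MX1 (-0.34, 0.0498), RSAD2 (-0.82, 0.00863), CLEC7A (-1.26, 0.00135) and COL4A2 (-0.35, 0.0147). For GJA1, COL4A2 and IFI27, sgPRMT5-1 was the sgRNA farther from WDR77KO, and for the others it was sgPRMT5-2. The cause was not tested. The paper places the guide sequences in a supplementary table, which the supplement text at hand does not contain, and shows protein of knockout cells in figures, from which no value was taken.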

How the results depend on the processing

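The main counts were 1120 genes higher and 842 lower in PRMT5KO, and 35 interferon-stimulated genes lower. With the replicate block they were 838, 653 and 33, although libraries of the same replicate number correlated at only -0.278 to 0.0979 between sgRNAs, so the numbers were not shown to mark batches. RLE and upper-quartile factors, both filters, all 15 libraries in 1 fit and limma-trend kept every count within 1.5 times. Of the calls, 57.1% were higher with TMM, 49.2% with RLE, 53.9% with upper-quartile factors and 37.7% with library totals alone, where 716 genes were higher.

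The sgRNA as a correlated block (correlation 0.239) gave 271 higher, 190 lower and 24 interferon-stimulated. The sgRNAs as separate groups gave 2082 and 1559, and sample quality weights 2635 and 2234. sgPRMT5-1 alone gave 105 higher, 50 lower and 10 interferon-stimulated genes lower, and sgPRMT5-2 alone gave 1802 and 1499. PRMT5KO against sgWDR77-1 alone gave 1448 lower, and against sgWDR77-2 alone 164 higher, 119 lower and 19 interferon-stimulated. A call in all 4 pairs left 50, 31 and 10, and a difference of 1 log2 unit or more left 140, 244 and 15. Chosen after seeing the data, the covariate gave 697 and 556, and leaving out both sgWDR77-1 libraries with most reads outside genes gave 204, 199 and 20.

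Leaving out 1 library gave 446 to 1664 higher, 430 to 1514 lower and 27 to 37 interferon-stimulated genes. Counts moved by over 1.5 times without sgPRMT5-1 replicate 3 (739 and 561), sgPRMT5-2 replicates 1 (446 and 430), 2 (475 and 430) or 3 (492 and 485), sgWDR77-1 replicates 2 (459 and 510) or 3 (586 and 544), and sgWDR77-2 replicates 1 (1514 lower), 2 (736 higher) or 3 (676 higher). The cause was not tested.

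Of 127 named genes called, 32 passed in every alternative that tested them, 89 without each library, 81 with the sgRNA block and 112 with the replicate block, and 0 of 3771 combinations reversed. Lost without at least 1 library were AURKA, CARS1, CDC20, CDKN1B, DNAJC3, DNMT3B, EGF, FDXR, FGF5, GABRP, H2BC12, H2BC5, HLA-F, HMGA1, HMOX1, IFNGR1, IGF2BP2, KRT8, PADI2, PGD, PRMT1, PSMB8, PTBP1, RELA, SLC3A2, SNRPE, SNRPF, SOX2, SQLE, STARD4, TM7SF2, U2AF2, UHRF1, VWF, WNT5B and XPC, while AC003092.1 and MEX3C had too few reads to test without some libraries.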

Other observations

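AKAP12 and PDGFB were singled out after their values were seen. AKAP12, a scaffold of protein kinase A, was higher in PRMT5KO (mean 148.6 CPM) than in WDR77KO (51.7 CPM) and sgNeg (53.04 CPM), and the log2 fold change was 1.45 (adjusted p = 0.000884 by limma voom with Benjamini-Hochberg adjustment). PDGFB showed the same order, at means of 62.7, 22.9 and 27.2 CPM.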
